A study of Mus musculus with 6 samples.

Results

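A set of 30 antigen-presentation genes of the mouse major histocompatibility complex (MHC) pathway was followed in leukaemic blasts with and without a Stat3β transgene. They were found by matching the table's Entrez gene IDs to a fixed list of symbols, and all 30 were present among the 24454 gene IDs. Of them 17 belong to the class I pathway, 11 to the class II pathway, and 2 encode costimulatory ligands. The Stat3β TG group came from C57BL/6 mice carrying Mx1-Cre recombinase and a Stat3β transgene, and the WT group from their wild-type littermates, with 3 libraries each. In both groups fetal liver cells were transduced with an MLL-AF9 retrovirus and injected into NSG mice, a NOD-derived strain that lacks T, B and NK cells of its own but keeps myeloid and dendritic cells. All recipients, WT ones included, were given poly(I:C) 4 weeks after transplantation, which switches on Mx1-Cre and is itself an inducer of interferon. Venus+ MLL-AF9+ blasts were sorted from bone marrow 6 weeks after transplantation and their total RNA was sequenced. Whether each library came from a separate donor or a pool of animals is not given, so each p-value measures only the spread between these samples, which may be technical in part. Sex-linked genes differed between WT 2 and the other WT libraries, so the spread in WT is not technical alone.

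MHC class I molecules are found on nearly all nucleated cells and show peptides from the cell's own proteins to CD8 T cells. The proteasome cuts the proteins, the TAP transporter moves the peptides into the endoplasmic reticulum, and the peptides are loaded there onto a heavy chain paired with β2-microglobulin. MHC class II molecules are largely restricted to dendritic cells, B cells and macrophages, carry peptides from endocytosed proteins and are read by CD4 T cells. Their assembly needs the invariant chain CD74, proteases that remove it, and the DM molecule that exchanges its last fragment for a peptide. NLRC5 and CIITA are the main transactivators of class I and class II genes, and interferon gamma induces both sets. In acute myeloid leukaemia, loss of class II expression is a known route by which blasts escape donor T cells.

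The recovered reads per library numbered 24733256 to 51934498 in Stat3β TG and 21809788 to 26805344 in WT. The limit that a count of 0 allows, 3 reads, equalled 1.69 to 4.22 normalized counts and covers counting error only. The libraries did not divide by group alone. On the first principal component (47.4% of the variance) WT 1 lay at -38.3, on the side of the Stat3β TG libraries at -31.4 to -16.3, and WT 2 and WT 3 lay at 64.4 and 49.7. Y-linked genes summed to 8781 to 9465 normalized counts in Stat3β TG and 11012 in WT 2, whereas WT 1 and WT 3 had 58.8 and 71.8 and high Xist. WT 2 is thus the single WT library with Y-linked levels like those of Stat3β TG, although its Xist, at 835, was above the 19.1 to 71.6 of Stat3β TG. The 9 blast markers, among them Hoxa9, Meis1, Mpo and Elane, were detected in every library and summed to 152101 to 214082 normalized counts in Stat3β TG and 134156 to 206524 in WT. Genes were tested with limma on log2(normalized count + 1), with Benjamini-Hochberg adjustment over 12642 genes, those that reached 10 normalized counts in 3 or more libraries.

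No member passed the adjusted threshold of 0.05 between Stat3β TG and WT blasts. Of the 30 members 27 passed the filter on low values, and 13 of these had a log2 fold change above 0 (51.4% of all genes did) and 14 below 0. The limma test called 0 of the 27 (0% of all genes tested were called), with 2, H2-Eb1 and Cd80, at an unadjusted p under 0.05. These make up 7.41% of the 27, against a background of 6.10% of all genes. Both were higher in Stat3β TG (3.56% of all genes) and 0 members were lower (2.54%). H2-Eb1 passed the filter only through the Stat3β TG libraries, so the filter favoured its direction in this count and the next. With a mean of at least 50, Cd80 was the 1 member left at an unadjusted limma p under 0.05 (3.85%, against 6.12% of all genes). In 4 members the groups did not overlap, 14.8% of the 27 against 10.8% of all genes, with 2 higher in Stat3β TG (5.87%) and 2 lower (4.92%). The shares over both directions lie near their backgrounds. On the recovered reads edgeR called 0 members (0% of all genes) and DESeq2 called 0 (0.134%, with the adjusted p missing for another 0.142%). At an unadjusted p under 0.05, edgeR had 1 member (6.15% of all genes) and DESeq2 had 4 (7.67%). In bulk samples such as these, fewer cells of a type and less RNA per cell cannot be told apart. The median size of the log2 fold change, regardless of sign, was 0.20 over the members and 0.24 over all genes tested. At an unadjusted p under 0.05 there were 7 members without WT 1 (25.9%, against 27% of all genes) and 4 without Stat3β TG 3 (14.8%, against 3.99%). There was 1 (3.7%) without Stat3β TG 1, WT 2 or WT 3, against 3%, 3.12% and 3.15% of all genes. The count of members whose groups do not overlap was 10 without WT 1 (46.1% of all genes) and 7 without Stat3β TG 3 (20.1%).

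**Figure D1:**
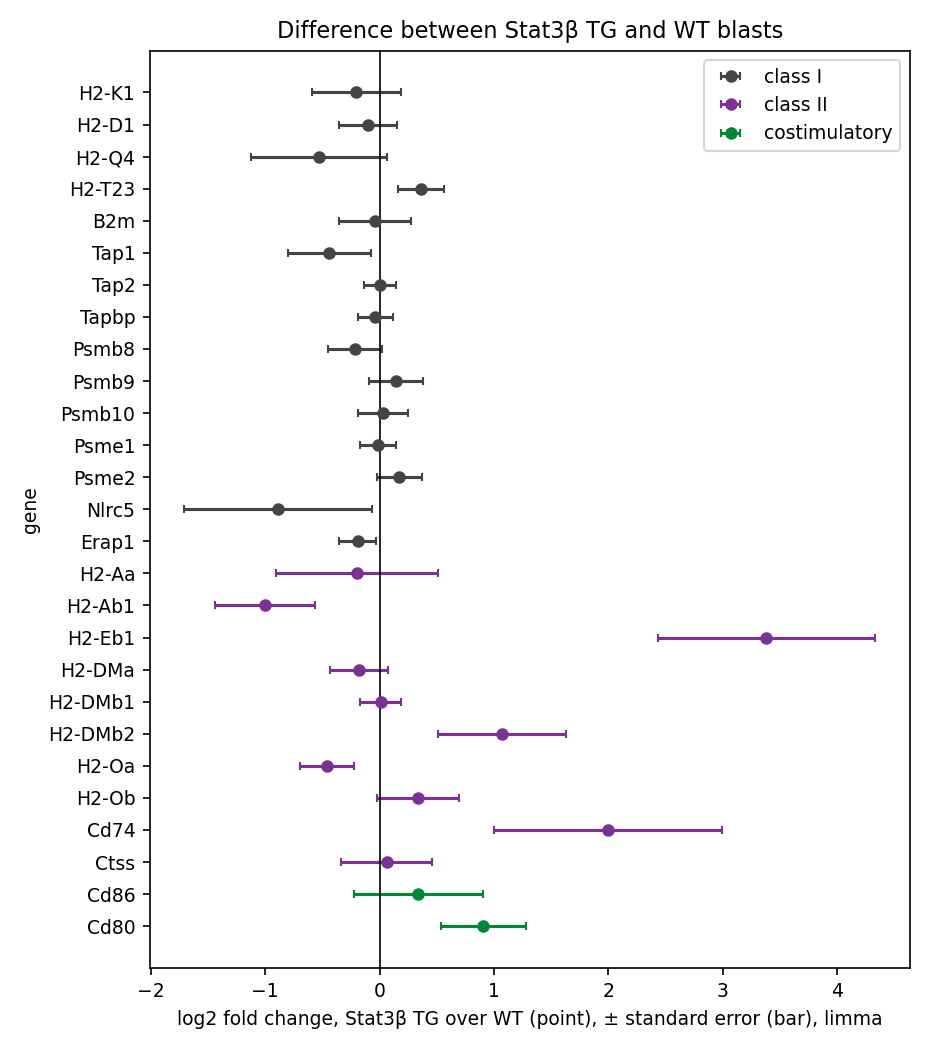
Stat3β TG relative to WT as log2 fold change (horizontal axis) for the 27 tested members (vertical axis), with points for limma's estimate and bars for its standard error, coloured by class. Class I members lie between -0.89 (Nlrc5) and 0.36 (H2-T23), and class II members span -1.003 (H2-Ab1) to 3.38 (H2-Eb1).

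The class I heavy chains differed more among libraries of one group than between the groups. H2-K1, a classical heavy chain that presents peptides to CD8 T cells, had 11113, 10964 and 22404 normalized counts in Stat3β TG 1 to 3, against 10051, 16669 and 24846 in WT 1 to 3. Its high libraries were Stat3β TG 3, WT 2 and WT 3, and the groups overlapped over nearly their whole range (log2 fold change -0.20, SE 0.39, limma adjusted p = 0.860). H2-D1, the other classical heavy chain, had 7002, 7290 and 11954 normalized counts in Stat3β TG against 7047, 9837 and 10793 in WT. The non-classical heavy chain gene H2-Q4 spanned a wider range, with 640.5, 846 and 1902 normalized counts in Stat3β TG and 599, 1956 and 2661 in WT. It was low in Stat3β TG 1, Stat3β TG 2 and WT 1 and high in the other three libraries. H2-T23, whose product Qa-1 is a ligand of NKG2A receptors on NK cells, went another way, at 2260, 2198 and 3138 normalized counts in Stat3β TG against 2323, 1886 and 1679 in WT (log2 fold change 0.36, SE 0.20, limma adjusted p = 0.668). H2-Q6 and H2-Q7, which encode further non-classical heavy chains, were listed at 0 in all 6 libraries. Of the 50-base words in their annotated transcripts, 32.0% and 34.9% also occur in transcripts of other genes, so reads from them could be lost or credited to a relative. This share was 28.8% for H2-T23, 24.3% for H2-Q4, 14.3% for H2-D1 and 8.79% for H2-K1, and values of the H2 heavy chains are uncertain to that extent.

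Nlrc5, the transactivator, and several other class I members had the same 3 libraries highest. Nlrc5 had 166, 118 and 726 normalized counts in Stat3β TG, against 184, 430.5 and 1143 in WT. Its highest library held 9.67 times the lowest, the widest range of any class I member tested, and the 3 high libraries were again Stat3β TG 3, WT 2 and WT 3. The mean difference was -0.89 on the log2 scale with an SE of 0.82 (limma adjusted p = 0.727), and it was -1.67 without Stat3β TG 3 and -0.21 without WT 3. Tap1, one subunit of the peptide transporter, had 2761, 2629 and 4628 normalized counts in Stat3β TG against 2564, 4952 and 6585 in WT. B2m, the light chain shared by all class I molecules, had 12788, 11948 and 24844 in Stat3β TG against 12753, 15396 and 21020 in WT. These 3 libraries were the highest 3 in 8 of the 15 tested class I members (H2-K1, H2-D1, H2-Q4, B2m, Tap1, Tap2, Psmb8 and Nlrc5), or 53.3%, in 1 of the 10 tested class II members, H2-Aa, and in 7.69% of all genes tested. This order was noticed in the data, and it crosses the groups. Among the 10 class I members with at most 10% of their 50-base words in other genes the count was 6.

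**Figure D2:**
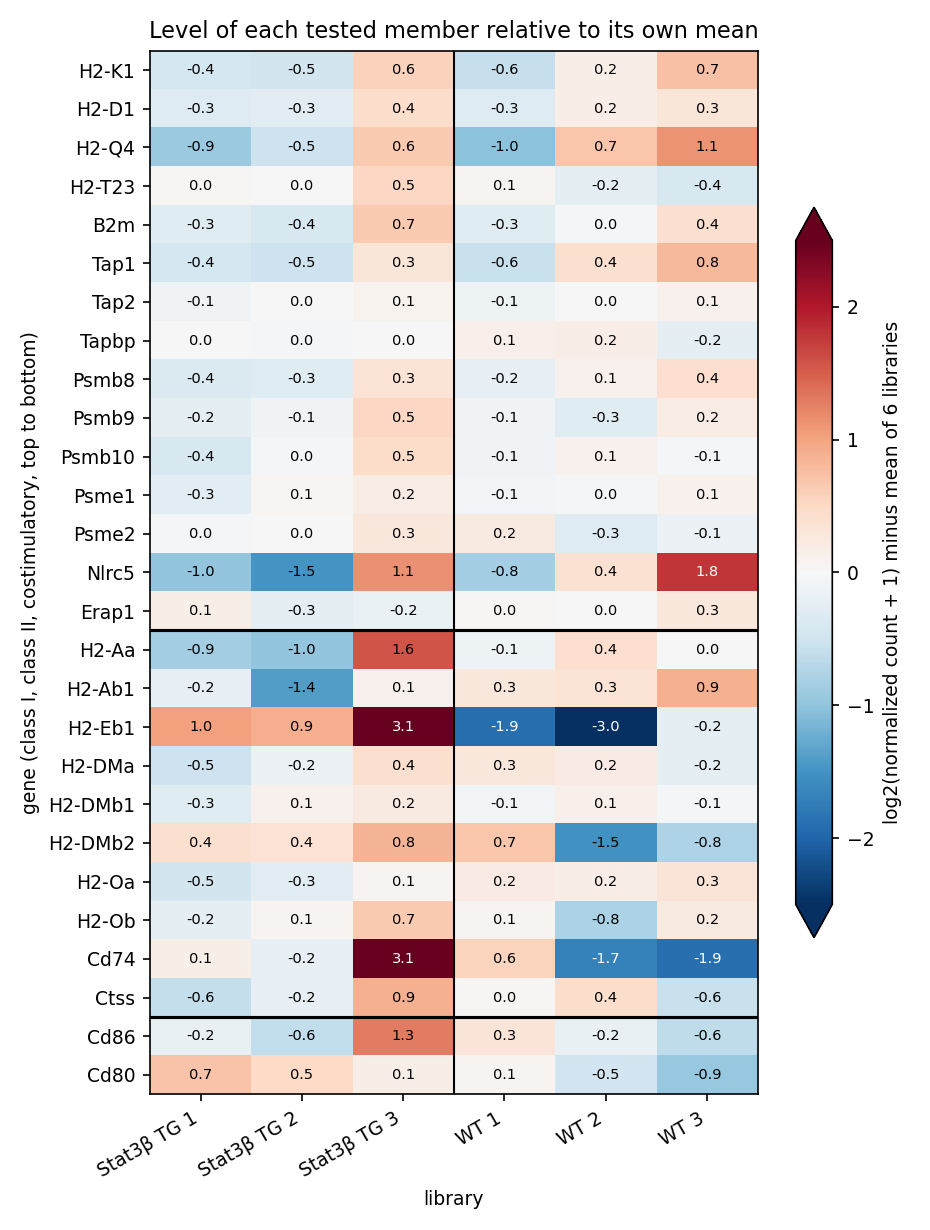
Level of each tested member in each library, as log2(normalized count + 1) minus the member's own mean over the 6 libraries (colour and printed value), with genes down the page by class and libraries across, Stat3β TG left of WT. H2-K1, H2-Q4, Tap1 and Nlrc5 are high in Stat3β TG 3, WT 2 and WT 3, while Cd74 and H2-Eb1 are highest in Stat3β TG 3.

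The second transporter subunit and the loading factors varied little. Tap2 stayed between 7888 and 8971 normalized counts in Stat3β TG and between 7682 and 9048 in WT. Tapbp, which encodes tapasin, the bridge between TAP and the heavy chain, stayed between 7343 and 7611 in Stat3β TG and between 6443 and 8504 in WT. Erap1, the peptidase that trims peptides in the endoplasmic reticulum, ranged from 2703 to 3545 in Stat3β TG and from 3211 to 3846 in WT. For each of these members the highest library held at most 1.42 times the lowest, against 2.57 times for Tap1.

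The 3 immunoproteasome subunits replace constitutive subunits in cells exposed to interferon. Of these, Psmb8 had the same 3 libraries highest as Tap1, namely Stat3β TG 3, WT 2 and WT 3. Psmb8 had 4544, 4747 and 7353 normalized counts in Stat3β TG and 5070, 6314 and 7797 in WT. Psmb9 had 1501, 1643 and 2523 in Stat3β TG and 1649, 1412 and 1987 in WT, and Psmb10 had 2035, 2609 and 3678 in Stat3β TG and 2506, 2870 and 2568 in WT. All of them were highest or second highest in Stat3β TG 3. Psme1 and Psme2, the subunits of the PA28 proteasome activator, had log2 fold changes of -0.01 and 0.17 (limma adjusted p = 0.979 and 0.770). Psme2 is uncertain, since 59.3% of its 50-base words occur in other genes.

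Tap1 and Psmb9 are neighbours that are transcribed away from each other, so their promoter sequence is shown because one stretch lies upstream of both. It covers the 225 bases between their annotated starts at chr17:34187331-34187555 (GRCm38.p6, RefSeq), printed on the plus strand, with Psmb9 to its left and Tap1 to its right, and capitals mark a CCAAT box.
Tap1 and Psmb9 shared interval: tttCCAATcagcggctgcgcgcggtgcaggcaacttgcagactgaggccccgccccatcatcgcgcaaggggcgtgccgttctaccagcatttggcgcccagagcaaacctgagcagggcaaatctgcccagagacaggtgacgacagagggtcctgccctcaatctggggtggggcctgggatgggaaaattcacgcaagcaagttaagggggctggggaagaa
Its CCAAT box begins 4 bases from the Psmb9 start. The neighbours were not ordered alike across libraries: at 1412 normalized counts, WT 2 was the lowest library in Psmb9, while at 4952 it was the second highest in Tap1.

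The class II chain genes differed in sign, and none passed the adjusted threshold. H2-Eb1 (Entrez 14969, chromosome 17 at 34305867 to 34316674, GRCm38), the I-E β chain, had 14.7, 13.5 and 67.4 normalized counts in Stat3β TG 1 to 3, against 1.09, 0 and 5.63 in WT 1 to 3. These values rest on 22, 11 and 120 reads in Stat3β TG and on 1, 0 and 4 reads in WT. The groups did not overlap, Stat3β TG 3 was far above the rest, and 2 WT libraries were at or under the limit that a count of 0 allows. The log2 fold change was 3.38 with an SE of 0.95, at an unadjusted p of 0.00767 and a limma adjusted p of 0.668. The gene passed the filter only through the Stat3β TG libraries, and its fold depended on the pseudocount, at 3.85 with 0.5 and 2.12 with 5. Leaving out 1 library at a time gave 2.65 (without Stat3β TG 3) to 4.11 (without WT 3). Against WT 2 alone, the WT library with Y-linked levels like those of Stat3β TG, it was 4.64. That value depends on the pseudocount, since WT 2 had 0 reads of H2-Eb1. The I-E α chain gene H2-Ea, which the RefSeq table lists as a transcribed pseudogene, was at 0 in all 6 libraries.

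H2-Ab1 (Entrez 14961, chromosome 17 at 34263227 to 34269418), the I-A β chain, had 169, 72.6 and 208 normalized counts in Stat3β TG against 234, 246 and 360.2 in WT. All 3 Stat3β TG libraries lay below the lowest WT library. The log2 fold change was -1.003 with an SE of 0.44 (limma unadjusted p = 0.0510, adjusted p = 0.668), and it was -0.55 without Stat3β TG 2, the lowest library. Against WT 2 alone it was -0.85. Its partner H2-Aa, the I-A α chain, had 24.1, 22.2 and 137 normalized counts in Stat3β TG and 41.4, 60.9 and 45.0 in WT. Stat3β TG 1 and 2 were below every WT library and Stat3β TG 3 was above every one, and the log2 fold change was -1.04 without Stat3β TG 3, against -0.20 with all libraries. On the recovered reads the sign turned, to 0.32 by edgeR and 0.31 by DESeq2.

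**Figure D3:**
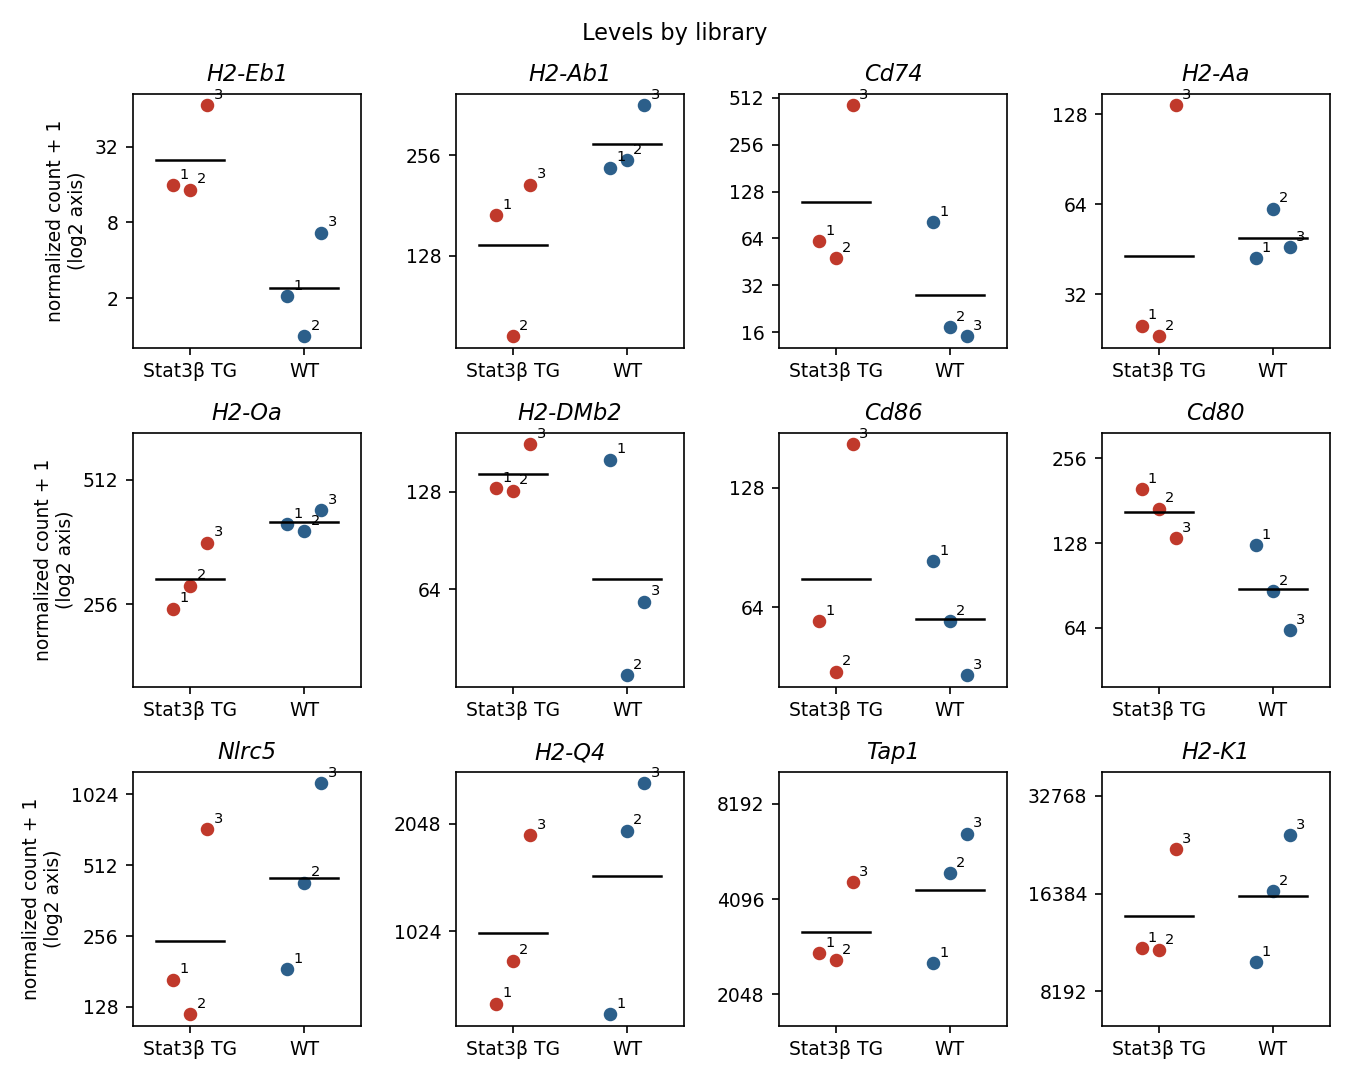
Normalized count + 1 on a log2 axis for 12 members, 1 point per library with its replicate number, Stat3β TG left of WT, and a line at the mean of the log2 values of each group. The groups do not overlap in H2-Eb1, H2-Ab1, H2-Oa and Cd80, and Stat3β TG 3 stands above every other library in H2-Eb1, H2-Aa, Cd74, H2-DMb2 and Cd86.

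The invariant chain gene Cd74, whose product keeps the class II groove closed until the endosome, had 60.2, 46.8 and 459.6 normalized counts in Stat3β TG against 80.5, 16.2 and 14.1 in WT. Stat3β TG 3 held nearly all of the excess, and WT 1 exceeded Stat3β TG 1 and 2. The log2 fold change was 2.00 with an SE of 0.99 (limma adjusted p = 0.668), 0.97 without Stat3β TG 3, and 0.44 when WT 2 and WT 3 were left out together. DESeq2 gave an unadjusted p of 0.0121 and an adjusted p of 0.457. Ctss, which encodes cathepsin S, the protease that degrades the invariant chain, had 3032, 3992 and 8427 normalized counts in Stat3β TG against 4661, 6212 and 3092 in WT, and was highest in the same library. Ciita, the class II transactivator, was below the filter, at 7, 1 and 7 reads in Stat3β TG and 0, 0 and 3 reads in WT. In normalized counts these were 4.68, 1.23 and 3.93 in Stat3β TG against 0, 0 and 4.22 in WT. No difference in Ciita was detectable at this depth.

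Of 10 markers of dendritic cells, which carry much class II, 5 were highest in Stat3β TG 3, as were 17.3% of all genes tested. They were Siglech, Cd209a, Itgax, Ccr7 and, by a narrow margin, Clec9a. Ccr7 reached only 34.8 normalized counts there, and Clec9a 19.1, against 18.7 in Stat3β TG 1. Stat3β TG 3 was also the library with most Cd74 and H2-Eb1. Fscn1 and Zbtb46 were highest in Stat3β TG 1 and Flt3 and Xcr1 in WT 2, and Ccl22 was at 0 in all libraries. Xcr1, a marker of cross-presenting dendritic cells, had 26.1, 72.6 and 29.8 normalized counts in Stat3β TG against 52.2, 93.4 and 25.3 in WT. All 10 together summed to 3444, 5932 and 8063 normalized counts in Stat3β TG against 1495, 12767 and 12581 in WT, and Flt3 is also expressed by myeloid blasts. Without Flt3, a choice made after the values were seen, the sums were 412, 259.8 and 788 in Stat3β TG against 232, 167 and 149 in WT. Itgax alone made up 313, 143 and 454 of these in Stat3β TG against 126, 65.0 and 95.7 in WT. The gap between the groups in these sums thus leans on Itgax. Siglech, a marker of plasmacytoid dendritic cells, had 14.7, 3.69 and 120 normalized counts in Stat3β TG against 1.09, 0 and 9.85 in WT, and Cd209a had 8.70, 3.69 and 106 in Stat3β TG against 14.1, 0 and 0 in WT. The part of such cells in the class II values was not tested. The 6 B cell markers together summed to 1211, 1840 and 2072 in Stat3β TG against 1803, 1233 and 1465 in WT, highest in Stat3β TG 3. Most of each sum was Cd79b, which every library expressed, at 2051 in Stat3β TG 3. Without Cd79b, a choice made after the values were seen, the sums were 20.8 to 60.9 in Stat3β TG and 24.4 to 38.1 in WT. That sum was lowest in Stat3β TG 3, and Ms4a1 was at 0 in 5 of 6 libraries. The 10 macrophage markers, none at 0 throughout, summed to 16132 to 22278 in Stat3β TG and 7328 to 20889 in WT.

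Among the DM and DO genes, H2-DMb2 varied most across libraries. H2-DMa had 2091, 2684 and 3917 normalized counts in Stat3β TG against 3651, 3429 and 2554 in WT, and H2-DMb1 had 1464, 1949 and 2114 in Stat3β TG against 1720, 1975 and 1745 in WT (log2 fold change 0.01, SE 0.18). H2-DMb2, a second DM β chain gene, had 131, 128 and 179 in Stat3β TG against 160.0, 33.8 and 57.7 in WT, where WT 1 exceeded Stat3β TG 1 and 2. Its log2 fold change was 1.07 (SE 0.56, limma adjusted p = 0.668), 0.58 without WT 2, 1.68 without WT 1 (adjusted p = 0.0614), and its sign turned, to -0.15, when WT 2 and WT 3 were left out together. Against WT 2 alone, a fit with 1 WT library, it was 2.06 with a limma adjusted p of 0.0465. It was the one member called there, 3.7% of the 27 against 5.85% of all genes. The DM β chain genes share 27.2% and 29.5% of their 50-base words with other genes, most with each other, so the split between them is uncertain. H2-Oa (Entrez 15001, chromosome 17 at 34092379 to 34095234), the α chain of DO, an inhibitor of DM, had 249, 283 and 360.1 normalized counts in Stat3β TG against 398, 384 and 431 in WT. The groups did not overlap (log2 fold change -0.46, SE 0.24, limma adjusted p = 0.668), and the value ranged from -0.60 to -0.34 when 1 library was left out. H2-Ob, the DO β chain, had 288, 357 and 534 in Stat3β TG against 354, 196 and 394 in WT, with Stat3β TG 3 again highest.

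Per kilobase of annotated exon, the class II chains were scarce beside the classical class I chains and beside H2-DMa and H2-DMb1. The mean over the 6 libraries was 19138 normalized counts per kilobase for B2m, 5449 for H2-K1 and 3485 for H2-D1. It was 1087 for H2-DMb1 and 886 for H2-DMa, but 65.7 for the third DM gene, H2-DMb2, 83.7 for H2-Ab1, 67.2 for Cd74, 14.5 for H2-Aa, 8.78 for H2-Eb1 and 0.246 for Ciita. Ctss, at 3610 per kilobase, was the most abundant member of the class II route, and is also used in lysosomes outside it. Exon length was taken over all GENCODE M21 transcripts of a gene, which lowers the value of a gene with long alternative exons.

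Promoters are shown for the class II genes that match the X1 box consensus, and for H2-Q4, the member heavy chain with the widest range. The X1 box is the site of the RFX complex upstream of class II genes. RefSeq promoter windows were found for 24 of the 30 members, and the 250 bases before the start were searched on both strands. No window was found for H2-Ab1, Cd74, Ciita, Nlrc5, Tap2 and Cd86, so their promoters were not searched. The X1 box, searched as a consensus of 11 letters, was found in 2 of 24 members, H2-Eb1 and H2-DMb1, and in 0.311% of 27025 genes with a window. The CCAAT box, the site of NF-Y, was found in 17 of 24 members, 7 of 8 class II and 10 of 15 class I ones, and in 37.5% of all genes. The sequences are printed 5′ to 3′ on the gene's own strand, with X1 and CCAAT boxes (CCAAT or its reverse complement ATTGG) in capitals.
H2-Eb1 (chr17:34305617-34305866, plus strand): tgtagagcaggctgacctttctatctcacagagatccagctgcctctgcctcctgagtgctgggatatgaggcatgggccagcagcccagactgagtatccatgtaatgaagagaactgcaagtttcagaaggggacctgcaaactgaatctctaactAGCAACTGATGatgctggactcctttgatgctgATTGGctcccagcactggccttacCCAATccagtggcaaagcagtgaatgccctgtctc
H2-DMb1 (chr17:34152941-34153190, plus strand): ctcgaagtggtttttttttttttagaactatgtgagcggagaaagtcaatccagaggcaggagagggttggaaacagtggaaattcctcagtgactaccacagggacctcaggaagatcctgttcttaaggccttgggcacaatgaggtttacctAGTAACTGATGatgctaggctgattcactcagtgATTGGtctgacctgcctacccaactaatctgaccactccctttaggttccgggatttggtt
H2-Q4 (chr17:35379367-35379616, plus strand): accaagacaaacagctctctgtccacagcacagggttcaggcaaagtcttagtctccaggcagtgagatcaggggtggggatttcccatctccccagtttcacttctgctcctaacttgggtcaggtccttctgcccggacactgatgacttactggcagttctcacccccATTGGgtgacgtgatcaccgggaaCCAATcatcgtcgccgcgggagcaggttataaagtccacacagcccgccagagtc
Counted from the start, the X1 box begins at -92 in H2-Eb1 and at -95 in H2-DMb1, with an ATTGG downstream of it in both. Their levels lay far apart, at 8.78 and 1087 normalized counts per kilobase. The STAT motif TTCNNNGAA was found in 2 of 24 members, H2-DMb2 and Psmb8, and in 8.13% of all genes. The interferon-stimulated response element, searched as a consensus of 10 letters, was found in 3 of 24 (B2m, Ctss and H2-T23) and in 3.46% of all genes. The motifs do not overlap each other in the printed windows, a match does not show a bound site, and near-identical heavy chain promoters are not independent. Exact matches alone were counted. A site that departs from its consensus would be missed, so a gene without a match may still hold one.

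The costimulatory ligands of CD28 and CTLA-4 differed from each other. Cd80 (Entrez 12519, chromosome 16 at 38457430 to 38495958) had 198, 169 and 133 normalized counts in Stat3β TG against 125, 85.3 and 61.9 in WT. The groups did not overlap, with a narrow gap between Stat3β TG 3 and WT 1 (log2 fold change 0.91, SE 0.37, limma unadjusted p = 0.0419, adjusted p = 0.668). The value was 0.66 without WT 3 and 1.17 without WT 1 (adjusted p = 0.0956), and 0.39 when WT 2 and WT 3 were left out together. Cd86 had 58.2, 43.1 and 164 normalized counts in Stat3β TG against 82.7, 58.2 and 42.2 in WT. Its groups overlapped, Stat3β TG 3 was highest, and its log2 fold change of 0.34 became -0.23 without that library.

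Set against each other library by library, class I and class II did not order all the libraries alike. The mean log2 level of the 15 tested class I members was 11.52, 11.54 and 12.22 in Stat3β TG 1 to 3, against 11.57, 11.91 and 12.18 in WT 1 to 3. That of the 10 tested class II members was 7.83, 7.81 and 9.08 in Stat3β TG against 7.99, 7.46 and 7.76 in WT. Stat3β TG 3 was the highest library in both classes. WT 2 and WT 3 were high in class I and lowest in class II, but the class II order rested on H2-Eb1. Without H2-Eb1 the class II level was 8.25, 8.25 and 9.41 in Stat3β TG against 8.76, 8.29 and 8.32 in WT, so that Stat3β TG 1 and 2 were lowest. The class II minus class I difference was -3.69, -3.73 and -3.14 in Stat3β TG, against -3.58, -4.44 and -4.42 in WT. It averaged -3.52 ± 0.33 in Stat3β TG and -4.15 ± 0.49 in WT (SD, n = 3 each), and WT 1 lay between Stat3β TG 3 and Stat3β TG 1, so the groups overlapped. The difference between groups, 0.63, was 0.31 without H2-Eb1, a choice made after its values were seen, and 0.066 without WT 2 and WT 3. The median log2 fold change was -0.04 over class I, 0.04 over class II and 0.01 over all genes tested, and the mean was -0.13, 0.50 and 0.05. Since the members were chosen with results of these data known, these scores were not tested. Gene length enters each class level, so only its variation among libraries is compared.

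**Figure D4:**
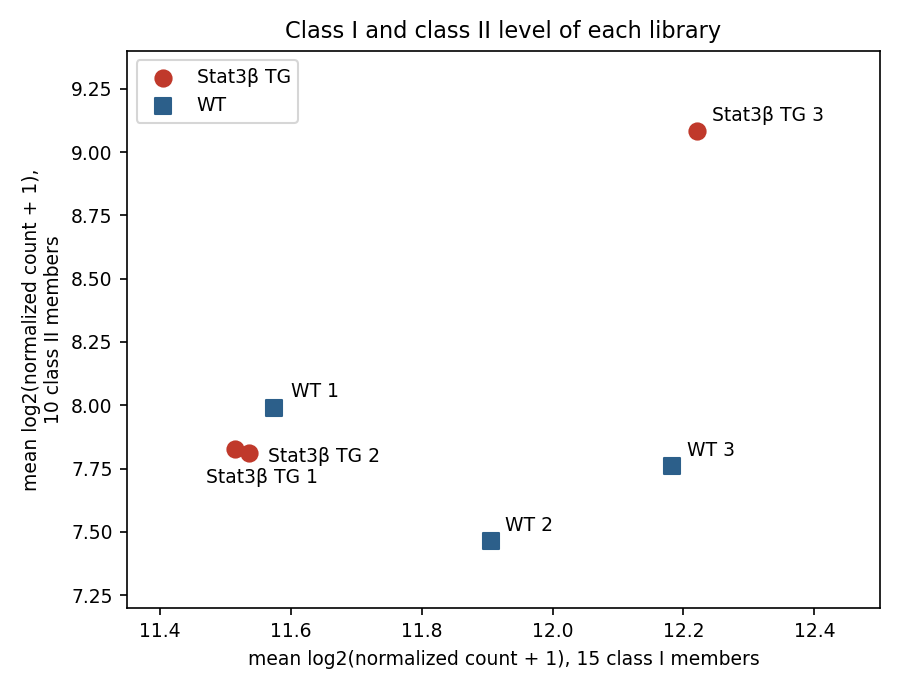
Mean log2(normalized count + 1) of the 15 tested class I members (horizontal axis) against that of the 10 tested class II members (vertical axis), 1 point per library, circles for Stat3β TG and squares for WT. With H2-Eb1 included, WT 2 and WT 3 are higher in class I and lower in class II than Stat3β TG 1 and 2; without it they are at 8.29 and 8.32 in class II, against 8.25 in Stat3β TG 1 and 2. Stat3β TG 3 is highest in both classes either way.

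Other genes of the pathway were examined from a separate list. Of 57 genes of loading, proteolysis, regulation and costimulation, 50 were tested, with 29 above 0 and 21 below 0, a median log2 fold change of 0.06, and 0 called by limma. In 2 the unadjusted p was under 0.05, 4% of the 50 against 6.10% of all genes. Irf2, a transcription factor of interferon-responsive promoters, had 2095, 2033 and 2229 normalized counts in Stat3β TG against 1696, 620.0 and 516 in WT, and the groups did not overlap (log2 fold change 1.37, SE 0.41, limma adjusted p = 0.668). Socs1, a feedback inhibitor of interferon signalling, had 102, 172 and 88.2 in Stat3β TG against 140.4, 330.3 and 722 in WT (log2 fold change -1.47, SE 0.59, limma adjusted p = 0.668). For both, WT 1 was the WT library closest to Stat3β TG. Nfya, a subunit of the CCAAT-binding factor NF-Y, and H2-T24, a non-classical heavy chain gene, had log2 fold changes of 0.50 and 1.07. Cd47, the ligand of the macrophage receptor SIRPα, and Cd274, which encodes PD-L1, had -0.44 and -0.68. The order with Stat3β TG 3, WT 2 and WT 3 highest was found in 6 of the 50 (12%), against 7.69% of all genes tested. They were the non-classical heavy chain genes H2-M3 and H2-T10, and Psme3, Nfyb, Marchf1 and Tnfsf9.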

How the data were processed

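Sample titles gave the groups and replicate numbers. The submitters' processing notes name FastQC, STAR, DESeq2 and the build GRCm38 (mm10). Versions, the gene counter and its use of strand were not stated in what was used here, so reads of a gene and an overlapping antisense gene cannot be told apart. The authors deposited normalized counts, a scaled signal at or above 0 for each gene and library. These were whole multiples of 1 step per library (100% of 146724 values within 0.001), so whole reads could be recovered. Symbols came from the RefSeq gene table of GRCm38.p6, which names 24376 of the 24454 IDs.

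The test was limma 3.58.1 (trend, robust, R 4.3.3), two-sided, with the group as its only term. The pseudocount of 1 pulls low genes toward 0. The alternatives edgeR 4.0.16 (quasi-likelihood) and DESeq2 1.42.0 (Wald) used the recovered reads. The fits were tested on simulated data. Levels per kilobase and shares of 50-base words used GENCODE M21. Libraries differed pairwise by a chi-square per gene of 51.7 to 175 and each counts as 1 sample. The members, the lists and the rule for names (all members, and the 3 other pathway genes with the smallest p in each direction) were chosen with earlier results of these data known. Other pathway genes named outside that rule were chosen after their values were seen.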

Additional observations from a re-analysis of the deposited data

How the results depend on the processing

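Leaving out WT libraries moved the counts most. At an unadjusted limma p under 0.05 there were 2 members, beside 6.10% of all genes. There was 1 with a mean of at least 50 (6.12% of all genes), 1 by edgeR (6.15%) and 4 by DESeq2 (7.67%). With 1 library left out there were 1 to 7 (3% to 27% of all genes). Over all genes 0 were called, against 17 by DESeq2, 9 without WT 2 and WT 3, 740 with the Y-linked libraries alone, and 0 to 346 with 1 library left out, the highest without WT 1. Members called numbered 0 except with the Y-linked libraries, where 1 was called (H2-DMb2, 2.06). Members whose groups did not overlap numbered 4, against 9 without WT 2 and WT 3 (44.3% of all genes), 13 with the Y-linked libraries (71.6%), and 4 to 10 with 1 library left out. The class II minus class I difference between groups was 0.066 without WT 2 and WT 3, and 0.44 to 0.91 with 1 library left out. With 1 library left out, the median log2 fold change ranged from -0.21 to 0.04 in class I and from -0.23 to 0.28 in class II.

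The sign of the log2 fold change turned without WT 2 and WT 3 in H2-K1 (0.48), H2-D1 (0.27), H2-Q4 (0.75), B2m (0.29), Tap1 (0.33), Psmb8 (0.094), Psme1 (0.054), Psme2 (-0.13), Nlrc5 (0.40), H2-Aa (0.024), H2-DMb2 (-0.15) and Cd86 (-0.15). With the Y-linked libraries alone it turned in B2m (0.019), Tap2 (-0.015), Psmb10 (-0.092), Psme1 (0.017), H2-DMb1 (-0.12) and Ctss (-0.41). It turned by edgeR in B2m (0.0045), Tap2 (-0.0057) and H2-Aa (0.32), by DESeq2 in B2m (0.0034), Tap2 (-0.0063) and H2-Aa (0.31), and under quantile normalization in Psme1 (0.011). With 1 library left out, it ranged across 0 in H2-K1 (-0.54 to 0.11), H2-D1 (-0.35 to 0.040), B2m (-0.38 to 0.15), Tap2 (-0.061 to 0.058), Tapbp (-0.16 to 0.036), Psmb9 (-0.086 to 0.29), Psmb10 (-0.20 to 0.23), Psme1 (-0.11 to 0.11), H2-Aa (-1.04 to 0.25), H2-DMa (-0.42 to 0.031), H2-DMb1 (-0.10 to 0.17), Ctss (-0.36 to 0.37) and Cd86 (-0.23 to 0.72). None of these was called, and the cause was not tested. Member fold changes kept their sign and side of the threshold in 379 comparisons with an alternative and turned sign in 51.

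The labels do not say whether the replicate numbers pair the samples. After removal of each group's mean, same-numbered libraries had correlations of 0.14, 0.10 and -0.11, against -0.20 to 0.14 for the other pairs. With so few libraries these values cannot decide it, and the main fit used no pairing. With the number as a replicate block, 3 members were at an unadjusted limma p under 0.05 (11.1%, against 7.39% of all genes). None of the members was called there (0% of all genes). Fits with 1 WT library assume that it varies like the other group. Depth limits Ciita, with 0 to 7 reads per library, and the WT values of H2-Eb1, with 0 to 4.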

Other observations

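The constitutive catalytic subunits of the proteasome, whose places the immunoproteasome subunits take, varied less across the libraries. Psmb5, the counterpart of Psmb8, had 729.5, 889 and 937 normalized counts in Stat3β TG against 863, 823 and 899 in WT. Psmb6, the counterpart of Psmb9, ranged from 2957 to 4056 in Stat3β TG and from 3432 to 3798 in WT, and Psmb7, the counterpart of Psmb10, from 2771 to 3403 in Stat3β TG and from 3051 to 3515 in WT. Among chaperones, Calr was at 46807, 46509 and 43156 in Stat3β TG against 46532, 38870 and 50371 in WT. Canx, which encodes calnexin, had a wider range, with 18612, 16466 and 19203 in Stat3β TG against 20896, 13629 and 15989.5 in WT. The limma adjusted p of these 5 genes lay between 0.821 and 0.982.

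The RFX subunit genes Rfx5, Rfxap and Rfxank, which class II promoters need beside CIITA, had log2 fold changes of -0.03, 0.10 and 0.13. Rfx5 had 1280, 1310.1 and 1412 normalized counts in Stat3β TG against 1524, 1465 and 1141 in WT. Rfx5 was thus detected in all 6 libraries, while Ciita had at most 7 reads in any of them. Ifi30, a thiol reductase of the class II route, was highest in Stat3β TG 3, at 5333, 6334 and 10699 in Stat3β TG against 8302, 9354 and 7161 in WT, and Irf8, a transcription factor of dendritic cells and monocytes, had 5816, 7580 and 14988 in Stat3β TG against 9189, 5522 and 3540 in WT.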
